A study of Mus musculus with 27 samples.

Results

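The response of unpolarized macrophages (Mφ) of TRAP1 KO mice to medium conditioned by malignant peripheral nerve sheath tumor cells (MPNST-CM) was measured in 6 libraries of the 27 in the series, 3 from cells in MPNST-CM and 3 from cells in control medium. The members were chosen by their titles, as the first-batch libraries of TRAP1 KO cells that were not given IL-4, and every gene that passed a filter on low counts was tested, 13614 of the 50559 in the table. The cells were grown for 7 days from bone marrow of female C57BL/6 mice of about 4 months, with L929-conditioned medium as the source of M-CSF, and then kept for 48 h in DMEM-based control medium or in MPNST-CM, which was renewed after 24 h. MPNST-CM had stood on murine MPNST cells for 4 days, so what the tumor cells released and what they consumed cannot be told apart. All 6 libraries carry the TRAP1 deletion and none received IL-4. The libraries most like them are those of WT Mφ in the same media (n = 3 in each) and those of TRAP1 KO M2 cells, which received IL-4 at 10 ng/ml for 24 h before the same media (n = 3 in each). The labels do not say whether replicates came from separate animals, so a p-value measures only the spread between libraries. That spread was estimated over all 24 first-batch libraries in 8 groups, which also include WT M2 cells in both media.

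TRAP1 is a mitochondrial chaperone of the HSP90 family that interacts with enzymes of respiration, succinate dehydrogenase among them. Macrophages read their surroundings through receptors for cytokines, lipids and microbial products, and in tumors they commonly take up programs of matrix remodelling, vessel growth and altered lipid and glucose use. Low amino acids or mitochondrial stress raise the transcription factor ATF4 and its targets, and low oxygen or raised succinate stabilizes HIF-1α and raises genes of glycolysis and vessel growth.

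The 6 libraries held between 7480246 and 8055385 counts. Trap1, the targeted gene, had no counts in any of them and between 11.2 and 16.7 CPM (counts in 1000000, after TMM scaling of the library sizes) in WT Mφ. Xist, which is transcribed from the inactive X chromosome of female cells, was at or below 0.875 CPM in the 6 libraries and between 297 and 468 CPM in WT Mφ. The Y-linked genes Ddx3y, Kdm5d, Uty and Eif2s3y had no counts in these libraries. The absence of Xist is shared by both media here and cannot be told apart from the genotype where TRAP1 KO is set beside WT. Replicate 1 stood apart in both media, its distance to replicates 2 and 3 giving a chi-square of 16.1 to 21.7 for each degree of freedom, while replicates 2 and 3 gave 3.42 in control medium and 2.99 in MPNST-CM. The 10 macrophage markers summed to between 10100 and 13300 CPM in control medium and to between 10300 and 12000 CPM in MPNST-CM. Of these, 4 were called higher and 4 lower, beside 14.8% and 18.1% of all genes tested. Of 7 Schwann lineage markers Sox10, Ngfr and Gap43 were at 0 in all 6 libraries, and the list had sums of 5.79 to 7.38 CPM in control medium and 5.62 to 6.37 CPM in MPNST-CM, and fibroblast markers summed to at most 2.55 CPM. Osteoclast markers summed to between 263 and 278 CPM in control medium and to between 109 and 115 CPM in MPNST-CM, mostly through the fusion-associated gene Atp6v0d2. Of 10 neutrophil markers 5 were tested, of which 2 were called higher and 1 lower. The 10 had sums of 18 to 23.4 CPM and then 10.5 to 12.1 CPM, mostly through Csf3r, with Retnlg at 0 throughout. The 2 higher, Ly6g and S100a9, reached at most 2.04 CPM, and S100a9 lost its call with DESeq2 and without the filter on low counts.

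MPNST-CM changed 4476 of the 13614 genes tested in TRAP1 KO Mφ, or 32.9%, with 2009 higher (14.8%) and 2467 lower (18.1%) than in control medium (quasi-likelihood test of edgeR at a Benjamini-Hochberg adjusted p of 0.05). Of these, 1749 changed by at least 1 on the log2 scale, 685 upward and 1064 downward. The 3 libraries in each medium did not overlap for 4301 of the called genes and for 5863 of all genes tested (43.1%). The median log2 fold change was 0.68 among genes called higher, −0.85 among those called lower and −0.04 over all genes tested. Without replicate 1 of both groups, an alternative chosen after seeing the data, 3653 genes were called, 1641 higher and 2012 lower, and 3516 of them were among the 4476, all in the same direction. With all 27 libraries in the fit, 2647 were called, 1358 higher and 1289 lower, though none of the 3 libraries this adds is of TRAP1 KO Mφ. In bulk samples, fewer cells of a kind and less RNA per cell cannot be told apart.

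Among the 15 largest rises were genes for platelet-type chemokines, a clotting factor and matrix proteins, a grouping made after their values were seen. Ppbp, which encodes the chemokine CXCL7, stood at 0.5, 3.4 and 1.18 CPM in control medium and at 557, 652 and 689 CPM in MPNST-CM. Its neighbour in function Pf4, or CXCL4, was at 296, 409 and 325 CPM and then at 9510, 11400 and 11600 CPM. Both groups were far apart for each gene, with log2 fold changes of 8.54 ± 0.271 (SE, adjusted p = 4.1e-16) for Ppbp and 4.98 ± 0.128 (adjusted p = 9.77e-21) for Pf4. F5, the cofactor of factor Xa in clotting, went from 2.75, 2.62 and 1.58 CPM to 438, 417 and 419 CPM. Thbs1, which encodes the anti-angiogenic matrix protein thrombospondin 1, went from 15.1, 21.1 and 12.9 CPM to 1510, 2240 and 1880 CPM, a log2 fold change of 6.84 ± 0.167. Vcan, a matrix proteoglycan, rose by 5.99 on the log2 scale, and Serpinb2, an inhibitor of plasminogen activation, by 5.54. Ppbp and Pf4 are also made by megakaryocytes, whose other markers summed to at most 0.524 CPM in any of the 6 libraries.

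The other genes among the 15 largest rises encode surface receptors and channels, an inflammatory chemokine and a few cell-type associated proteins. The glycerol channel Aqp9 rose by 7.24 on the log2 scale, the chemokine Cxcl3 by 7.04 and Trem1, a receptor that amplifies inflammatory signals, by 6.79. Ptprf, a receptor-type phosphatase, had 3 counts over the 3 control libraries against 694 in MPNST-CM, a ratio of 225 with an exact 95% counting interval from 76.6 to 1090. Il1r2, the decoy receptor for IL-1, had 3 counts against 358, a ratio of 116 with an interval from 39.4 to 565. Such intervals cover counting error only. The integrin subunit Itga1, the interferon-inducible membrane gene Ifitm1, Klra2 and Csta2 rose by 5.3, 5.94, 5.63 and 5.28 on the log2 scale. Klra2 and Csta2 belong to families of near-identical copies, so reads could be split among their relatives.

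**Figure D1:**
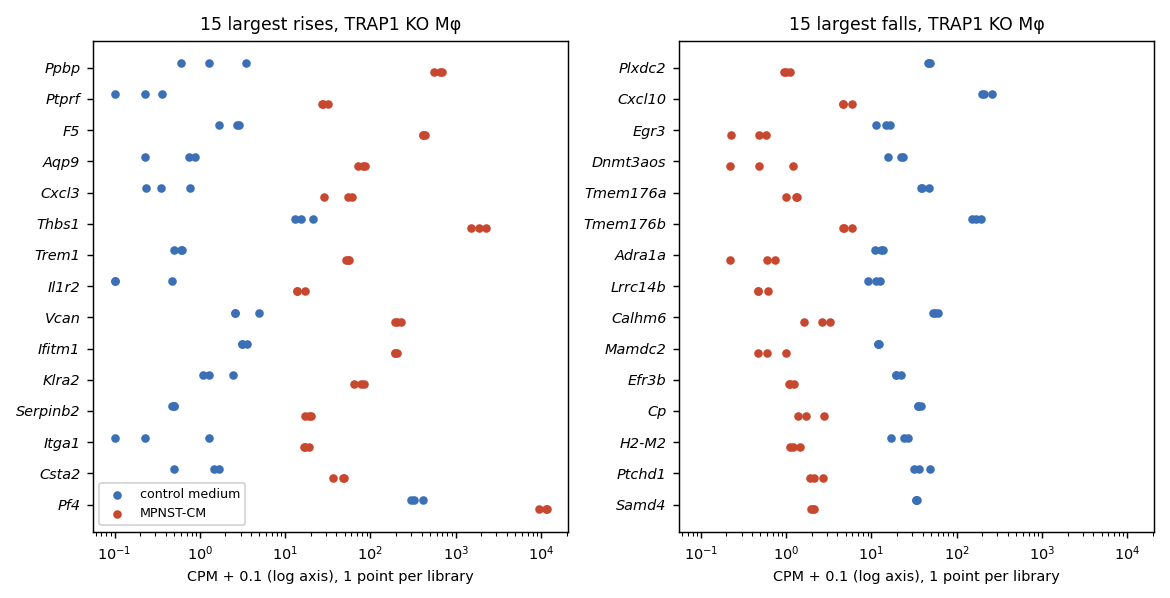
Expression of the 15 genes with the largest rises (left) and falls (right) in TRAP1 KO Mφ, in CPM plus 0.1 on a logarithmic axis, with 1 point for each of 3 libraries in control medium (blue) and 3 in MPNST-CM (red). In every gene drawn the 2 media are separate, as the choice of these genes required, and Pf4 reaches 11600 CPM.

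The largest falls included an interferon-induced chemokine, a pair of neighbouring membrane genes and an immediate-early transcription factor. Plxdc2 was at 47.5, 45.8 and 47.9 CPM in control medium and at 0.999, 0.851 and 0.892 CPM in MPNST-CM, a log2 fold change of −5.66 ± 0.177 (adjusted p = 5.89e-19). Cxcl10, a chemokine that attracts T cells, was at 196, 257 and 210 CPM and then at 4.49, 4.5 and 5.86 CPM. For both genes all 3 libraries in MPNST-CM lay far below the lowest control value. The adjoining ion channel-like genes Tmem176a and Tmem176b fell by 5.19 and 5.09 on the log2 scale, and Egr3 by 5.35. Cp, which encodes the ferroxidase ceruloplasmin, fell by 4.26, Calhm6 by 4.55, Adra1a by 4.85 and the class I-like gene H2-M2 by 4.26. Mamdc2, Efr3b, Ptchd1, Samd4 and Lrrc14b fell by 4.32, 4.27, 4.15, 4.09 and 4.66. Dnmt3aos fell by 5.2, but it lies antisense to another gene and the strand setting of the counting is not given in the sources used here.

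Among the 8 called genes with the most reads, all were lower in MPNST-CM and by less than 1 on the log2 scale. They were the mitochondrially encoded ND4 and CYTB (−0.5 and −0.64), the cathepsins Ctsb, Ctsd and Ctss (−0.75, −0.29 and −0.3), the actin-binding Tmsb4x (−0.68), Gpnmb (−0.46) and the galectin Lgals3 (−0.63). With all 27 libraries in the fit, 6 of these 8 calls were lost, those of ND4, CYTB, Ctsd, Ctss, Gpnmb and Tmsb4x.

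Genes of DNA replication and mitosis fell almost as a block. Of 45 members tested, 44 were called lower and 0 higher, beside 18.1% and 14.8% of all genes, and the median log2 fold change was −1.79 against −0.04. The number lower was again 44 without replicate 1 of both groups, and 36 with all 27 libraries. Ccnb2, a cyclin that drives entry into mitosis, was at 48.9, 56 and 58.7 CPM in control medium and at 6.49, 6.45 and 6.62 CPM in MPNST-CM. The 3 values in MPNST-CM were nearly equal and all far below the control values, with a log2 fold change of −3.06 ± 0.111 (adjusted p = 9.97e-18). Stmn1, which regulates microtubules, fell by 2.97, and the spindle and kinetochore genes Nusap1 and Cenpf by 2.77 and 2.73. Mki67, the proliferation marker, was at 92.8, 62.7 and 53.8 CPM and then at 16.2, 7.3 and 8.15 CPM. The replication helicase subunit Mcm5 and the clamp Pcna fell by 1.38 and 1.48, and the repair exonuclease Exo1 by 2.98. The one member that did not pass was Cdc45, with a log2 fold change of −0.47 (adjusted p = 0.0668). Of 22 cell cycle inhibitors and p53 targets, 10 were lower and 4 higher, and the 4 higher calls were 0 without replicate 1 of both groups or without control replicate 2, 1 without control replicate 1 or MPNST-CM replicate 2 or 3 and 2 without MPNST-CM replicate 1. Cdkn1c fell by 2.8, Gadd45b by 2.39, Plk2 by 1.6 and Cdkn2a by 1.38.

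The same genes in WT Mφ gave 20 higher and 1 lower, beside 11.3% and 9.96% of all genes, and the response of TRAP1 KO minus that of WT was lower for 44 of 45, beside 11.5% of all genes. Ccnb2 went from 81 ± 5.92 CPM to 66.6 ± 0.721 CPM in WT Mφ (SD, n = 3), and its response differed between the genotypes by −2.78 ± 0.143 (SE, adjusted p = 2.43e-13). Mcm5 rose in WT Mφ by 0.61 on the log2 scale (adjusted p = 0.000296) and differed between the genotypes by −1.99. In TRAP1 KO M2 cells 41 members were lower and 0 higher, beside 20.2% and 16.7% of all genes.

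**Figure D2:**
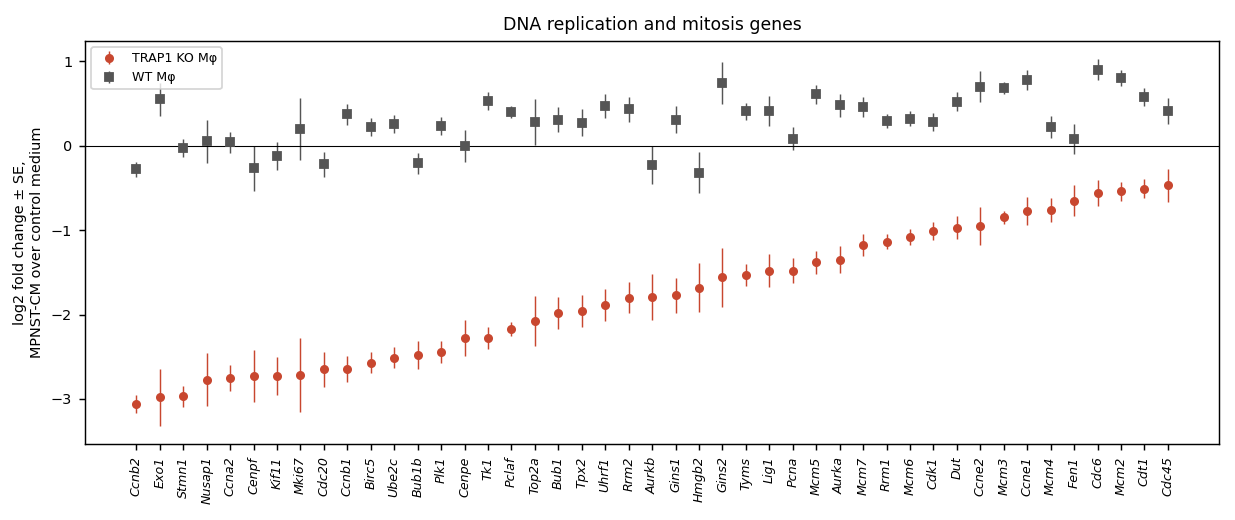
Log2 fold changes of 45 DNA replication and mitosis genes between MPNST-CM and control medium, with bars of ± 1 SE, in TRAP1 KO Mφ (red circles) and WT Mφ (grey squares), ordered by the TRAP1 KO value. The TRAP1 KO points run from −3.06 to −0.47, while the WT points lie around a median of 0.31.

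The integrated stress response was the list with the largest share of rises. Of 31 members tested, 26 were called higher and 1 lower, beside 14.8% and 18.1% of all genes, and the median log2 fold change was 1.22. Leaving out replicate 1 of both groups gave 26 and 1 again, and all 27 libraries gave 19 and 1. Atf4, which encodes the transcription factor at its centre, was at 155, 152 and 183 CPM in control medium and at 562, 514 and 538 CPM in MPNST-CM, a log2 fold change of 1.72 ± 0.0838 (adjusted p = 3.86e-15). Asns, asparagine synthetase, went from 5.63, 11.8 and 6.58 CPM to 113, 113 and 124 CPM. Trib3, a pseudokinase that restrains ATF4, went from 1, 1.05 and 1.84 CPM to 34.3, 42.2 and 42.4 CPM. For each of these genes all 3 libraries in MPNST-CM were above all 3 in control medium. Chac1, which degrades glutathione, had 2 counts over the control libraries against 134, a ratio of 65.1 with an exact interval from 17.7 to 543. The serine synthesis enzyme Phgdh rose by 3.5 on the log2 scale, the amino acid transporter Slc7a5 by 2.66 and the proline synthesis enzyme Aldh18a1 by 2.43. Ddit3, which encodes CHOP, rose by 1.22. Atf3 was the member that fell, by 2.05, and Ppp1r15a (0), Wars (0.13), Sesn2 (0.83) and Vldlr (0.81) did not pass. The response exceeded that of WT Mφ for 16 members and was below it for 2, beside 8.17% and 11.5% of all genes, and Asns differed between the genotypes by 2.88 ± 0.308 (adjusted p = 2.25e-07). The difference was not called for Chac1 (2.34 ± 1.33, adjusted p = 0.25). Set beside TRAP1 KO M2, 1 member had a larger response and 2 a smaller one, beside 6.01% and 5.48% of all genes.

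**Figure D3:**
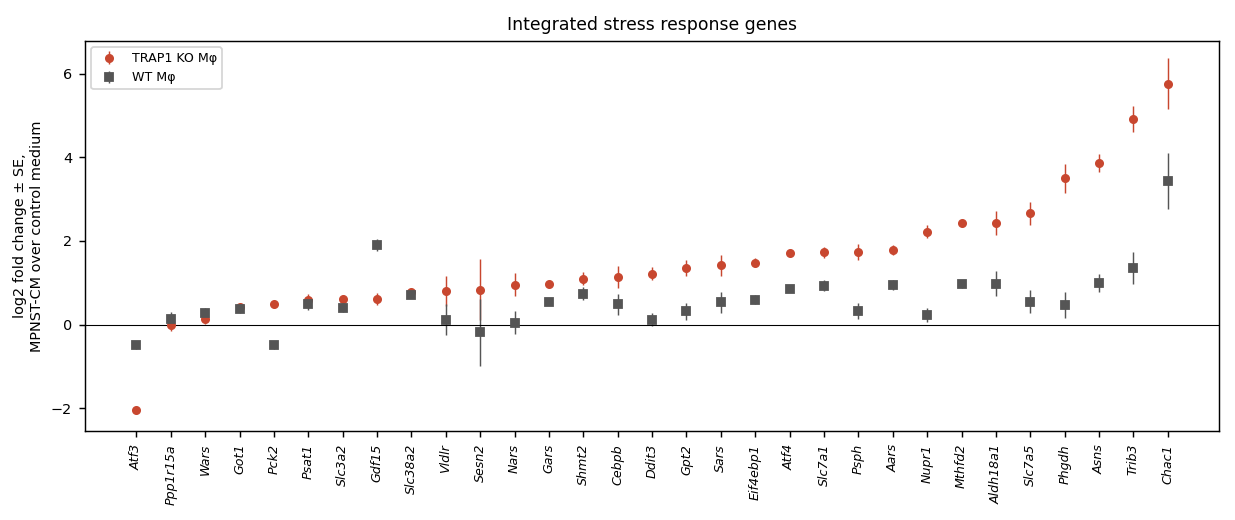
Log2 fold changes of 31 integrated stress response genes between MPNST-CM and control medium, with bars of ± 1 SE, in TRAP1 KO Mφ (red circles) and WT Mφ (grey squares), ordered by the TRAP1 KO value. The TRAP1 KO median is 1.22 and the WT median 0.48, and Chac1 is the highest member in TRAP1 KO.

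Promoters of these opposite groups are shown because their members moved together, taken from RefSeq's GRCm38.p6 sequence, each 300 bases from upstream of the annotated start to just after it. The letters TGATGNAA, the core of the element that ATF4 and CHOP can bind, were searched on both strands and are in capitals in Chac1, Trib3 and Asns. For the mitotic genes the letters TTTGAA, found in cell cycle homology elements, and CCAAT, bound by NF-Y, were searched on both strands and are in capitals in Ccnb2 and Cenpf. The intervals are chr2:119350992-119351291 on the plus strand for Chac1, chr2:152344011-152344310 on the minus strand for Trib3, chr6:7693160-7693459 on the minus strand for Asns, chr9:70421505-70421804 on the minus strand for Ccnb2 and chr1:189688037-189688336 on the minus strand for Cenpf.
Chac1: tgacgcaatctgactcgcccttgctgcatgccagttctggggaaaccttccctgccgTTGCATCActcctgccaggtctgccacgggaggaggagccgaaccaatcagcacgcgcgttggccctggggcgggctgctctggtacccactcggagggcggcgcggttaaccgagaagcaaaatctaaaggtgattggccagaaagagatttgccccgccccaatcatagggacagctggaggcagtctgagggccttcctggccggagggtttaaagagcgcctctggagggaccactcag
Trib3: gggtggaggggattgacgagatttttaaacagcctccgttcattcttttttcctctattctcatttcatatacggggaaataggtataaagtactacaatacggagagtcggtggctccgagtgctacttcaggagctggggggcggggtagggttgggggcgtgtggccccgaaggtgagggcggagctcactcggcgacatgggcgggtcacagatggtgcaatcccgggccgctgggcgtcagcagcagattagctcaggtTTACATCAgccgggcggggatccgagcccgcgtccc
Asns: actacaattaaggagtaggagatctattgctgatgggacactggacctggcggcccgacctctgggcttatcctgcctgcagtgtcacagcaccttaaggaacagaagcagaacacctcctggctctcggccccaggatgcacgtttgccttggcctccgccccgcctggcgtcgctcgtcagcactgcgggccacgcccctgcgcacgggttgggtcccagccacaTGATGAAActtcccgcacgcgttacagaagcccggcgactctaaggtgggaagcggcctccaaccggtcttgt
Ccnb2: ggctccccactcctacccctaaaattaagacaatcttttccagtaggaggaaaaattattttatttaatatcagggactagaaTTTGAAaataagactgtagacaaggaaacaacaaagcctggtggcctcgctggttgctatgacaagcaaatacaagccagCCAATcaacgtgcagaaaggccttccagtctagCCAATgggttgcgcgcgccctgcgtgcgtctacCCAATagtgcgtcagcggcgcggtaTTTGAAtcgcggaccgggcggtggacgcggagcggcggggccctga
Cenpf: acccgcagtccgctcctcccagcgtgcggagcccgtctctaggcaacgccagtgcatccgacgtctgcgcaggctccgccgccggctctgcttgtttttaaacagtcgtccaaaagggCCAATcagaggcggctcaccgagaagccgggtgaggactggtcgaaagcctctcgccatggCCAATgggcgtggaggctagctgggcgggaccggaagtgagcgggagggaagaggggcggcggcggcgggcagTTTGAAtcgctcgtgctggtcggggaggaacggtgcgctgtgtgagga

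Of the 26 stress response genes called higher, 23 had a promoter in the table, and TGATGNAA was present in 8 of the 23 (34.8%), against 3.97% of all 32851 promoters and 2.92% of the 9906 tested genes with one. The 8 were Aars, Asns, Chac1, Gars, Got1, Nupr1, Pck2 and Trib3. Of the 44 replication and mitosis genes called lower, 35 had a promoter in the table. CCAAT was present in 25 of the 35 (71.4%), against 37.4% of all promoters and 42.5% of those of tested genes, and TTTGAA in 14 (40%), against 17.9% and 14.9%. Ccnb2 held 3 matches of CCAAT and Nusap1 held none of either motif. Exo1, Stmn1 and Ccna2 had no entry. A match describes these letters and is no evidence of binding.

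Most genes of glucose use and of the hypoxia response rose too. These are transcript levels. The study reports that succinate and HIF-1α protein rose in WT Mφ in MPNST-CM and did not change in TRAP1 KO Mφ. In the glycolysis list 16 of 25 members were higher and 2 lower, beside 14.8% and 18.1% of all genes, with a median of 0.9. Slc16a3, the lactate exporter MCT4, was at 24.8, 28 and 31.3 CPM in control medium and at 211, 209 and 203 CPM in MPNST-CM, a log2 fold change of 2.89 ± 0.0991 (adjusted p = 3.36e-18). The liver-type phosphofructokinase Pfkl rose by 1.55, lactate dehydrogenase Ldha by 1.32, Pgk1 by 1.22 and the glucose transporter Slc2a1 by 1.09. The lysosomal hexose transporter Slc2a6 fell by 2.48. Gapdh (1.37) and Eno1 (1.52) passed at means under 8 CPM, and both have many processed copies in the genome, so their counts are uncertain, and without replicate 1 of both groups Gapdh lost its call (adjusted p = 0.0591). Of 20 other HIF targets, 13 were higher and 4 lower, beside the same shares, with a median of 0.98, and with all 27 libraries 0 were lower. Vegfa, the main growth factor of blood vessels, was at 32.8, 32.5 and 37.1 CPM and then at 256, 290 and 317 CPM. Egln3, an oxygen-sensing hydroxylase, rose by 4.29, Ddit4, an inhibitor of mTORC1, by 3.78, the lipid droplet gene Hilpda by 3.63 and Ero1a by 2.21. Pdgfb fell by 1.91. In WT Mφ 17 of the 25 glycolysis genes were higher and 1 lower, beside 11.3% and 9.96% of all genes. The TRAP1 KO response was above that of WT for 11 of the 25 and below it for 3. The response exceeded that of WT Mφ for 11 of the 20 HIF targets and fell short for 0, beside 8.17% and 11.5% of all genes, and for Vegfa the difference was 2.42 ± 0.165 (adjusted p = 1.94e-11) beside WT levels that went from 16.8 ± 1.85 CPM to 26.4 ± 4.29 CPM.

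Among genes of mitochondrial respiration more were called higher than lower, in WT Mφ as well as in TRAP1 KO Mφ. In WT Mφ 14 complex I subunits were higher and 0 lower, and of complexes III to V 12 and 1, each with a median of 0.22. The shares of all genes in WT Mφ were 11.3% higher and 9.96% lower. Of 37 complex I subunits 10 were higher and 1 lower in TRAP1 KO Mφ, beside 14.8% and 18.1% of all genes, with a median of 0.13. Ndufv3 rose most there, by 0.56, while Ndufc2 fell by 0.42. Of 37 nuclear subunits of complexes III to V, 9 were higher and 1 lower, with a median of 0.1, and the 9 were 5 without replicate 1 of both groups, 3 without control replicate 1 or MPNST-CM replicate 2 and 4 without MPNST-CM replicate 3, while the 1 lower was 2 without control replicate 1 or MPNST-CM replicate 2. Cox6a2, the muscle-type subunit of cytochrome oxidase, stood out at 1.5, 1.31 and 1.97 CPM in control medium and 30.6, 31.7 and 31.1 CPM in MPNST-CM. In WT Mφ it was at 0.921 ± 0.306 and 0.496 ± 0.378 CPM, and the genotypes differed in response by 5.18 ± 0.603 (adjusted p = 2.63e-07). Uqcrq rose by 1.29 and Cycs by 0.7, and Atp5a1 fell by 0.28. Of 28 genes of the TCA cycle and succinate dehydrogenase 5 were higher and 8 lower, with a median of 0.1. The 5 were 3 without control replicate 1 or MPNST-CM replicate 3, and the 8 were 5 without control replicate 3 or MPNST-CM replicate 1. Acod1, which makes itaconate, an inhibitor of succinate dehydrogenase, was at 51, 63 and 61.1 CPM and then at 7.99, 7.66 and 12.6 CPM, a log2 fold change of −2.63 ± 0.167 (adjusted p = 9e-13). Its difference from WT Mφ was −3.03 (adjusted p = 1.05e-10). Pdha1 rose by 0.56 and Mdh2 by 0.43. Pcx had 24 counts over the control libraries and 2 in MPNST-CM. Of 87 cytosolic ribosomal protein genes 5 were higher and 4 lower, and of 76 mitochondrial ones 10 and 2, with medians of 0.03 and 0.12. Leaving out 1 library gave 3 to 9 higher among the cytosolic genes, with 3 without control replicate 1 or MPNST-CM replicate 2 or 3 and 9 without MPNST-CM replicate 1. Among the mitochondrial ones it gave 5 higher without MPNST-CM replicate 3 and 6 without control replicate 3 or MPNST-CM replicate 2, and 1 lower without MPNST-CM replicate 1 or 3. Rpl22l1 fell by 1 and Mrpl33 rose by 0.57.

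In lists of antioxidant genes and chaperones more members were called higher than lower, beside 14.8% higher and 18.1% lower of all genes. Median log2 fold changes were 0.28 for NRF2 and thiol genes and 0.15 for endoplasmic reticulum chaperones. For heat shock and mitochondrial chaperones the median was 0.06. Of 26 NRF2 and thiol genes 12 were higher and 4 lower. The cystine importer Slc7a11, also a target of ATF4, rose by 2, Osgin1 by 1.36, Prdx6 by 1.06, Abcc1 by 1.02 and Srxn1 by 0.95. The heme oxygenase Hmox1 rose by 0.64. Of 24 endoplasmic reticulum chaperones 7 were higher and 3 lower (1 without MPNST-CM replicate 2), with Xbp1 at 0.74, P4hb at 0.66 and Sdf2l1 at −0.94. Of 19 heat shock and mitochondrial chaperones 7 were higher and 1 lower, and the 7 were 4 without control replicate 1 or MPNST-CM replicate 2 or 3 and the 1 was 0 without control replicate 1 or MPNST-CM replicate 2, with the mitochondrial Hspa9 at 1.2, Hspa1a at 1.23, the protease Lonp1 at 0.56 and Hspd1 at −0.38.

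The lists of cholesterol synthesis and of lipid uptake held more members called lower than higher. Of 23 cholesterol genes 10 were lower and 12 did not pass in TRAP1 KO Mφ, beside 18.1% of all genes called lower, with a median of −0.39. In WT Mφ 21 were higher and 0 lower, beside 11.3% and 9.96% of all genes. The TRAP1 KO response was below that of WT for 21, beside 11.5% of all genes. Cyp51, which demethylates lanosterol, was at 58.9, 73.3 and 61.3 CPM in control medium and at 27.5, 31.7 and 31.1 CPM in MPNST-CM, and in WT Mφ it went from 74 ± 7.46 to 182 ± 13.8 CPM. The genotypes differed by −2.39 ± 0.137 (adjusted p = 8.92e-13). Insig1, the brake of SREBP2 processing, fell by 0.78, the synthase Hmgcs1 by 0.66 and Dhcr7 by 0.61. With all 27 libraries in the fit none of the 10 lower calls was kept. In TRAP1 KO M2 cells 19 of the 23 were lower and 0 higher, beside 20.2% and 16.7% of all genes.

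Of 21 genes of lipid uptake, efflux and droplets 13 were lower and 1 higher (2 without MPNST-CM replicate 1), beside 18.1% and 14.8% of all genes, with a median of −0.78. Lpl, lipoprotein lipase, was at 7460, 8620 and 7950 CPM in control medium and at 681, 779 and 814 CPM in MPNST-CM. That was a log2 fold change of −3.4 ± 0.084 (adjusted p = 6.49e-21), and it differed from that of WT Mφ, where Lpl went from 8360 ± 535 to 4320 ± 268 CPM, by −2.45. The fatty acid carrier Fabp4 fell by 3.23, the macrophage lipid-associated protein Cd5l by 2.63 and the lysosomal lipase Lipa by 2.09. Pparg, the nuclear receptor that drives several of these genes, fell by 3.17, and Nr1h3, which encodes LXRα, by 1.21. Of 17 genes of fatty acid synthesis and desaturation 7 were higher and 4 lower. Elovl6 rose by 2.77 and Scd2 by 0.87, and Fads2 fell by 1.12. Of 12 iron genes 6 were lower and 1 higher. The transferrin receptor Tfrc fell by 1.37 and the iron exporter Slc40a1 by 1.16, and the metal importer Slc39a14 rose by 2.08.

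Interferon-stimulated genes were split. Of 38 tested, 16 were lower and 8 higher, beside 18.1% and 14.8% of all genes, with a median of −0.34. All 27 libraries gave 6 lower and 3 higher. Rsad2, the antiviral enzyme viperin, was at 1110, 1230 and 1170 CPM in control medium and at 251, 246 and 253 CPM in MPNST-CM, a log2 fold change of −2.23 ± 0.0847 (adjusted p = 2.53e-17). Ifit2 fell by 2.56 and Cmpk2 by 2.27. Isg15 was at 13, 17.4 and 14.5 CPM and then at 11.2, 11.8 and 15.3 CPM and did not pass (adjusted p = 0.43). Slfn1 rose by 2.93 and Ifitm6 by 2.77. Ifit, Ifitm and Slfn genes have close relatives among which reads could be split. In TRAP1 KO M2 cells the same list gave 36 higher and 0 lower, beside 16.7% and 20.2% of all genes. The response of Mφ was below that of M2 for 33 of 38, beside 5.48% of all genes. Rsad2 stood at 123 CPM in M2 cells in control medium and at 546 CPM in MPNST-CM on average, and its response differed between Mφ and M2 by −4.38 (adjusted p = 2.83e-19).

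**Figure D4:**
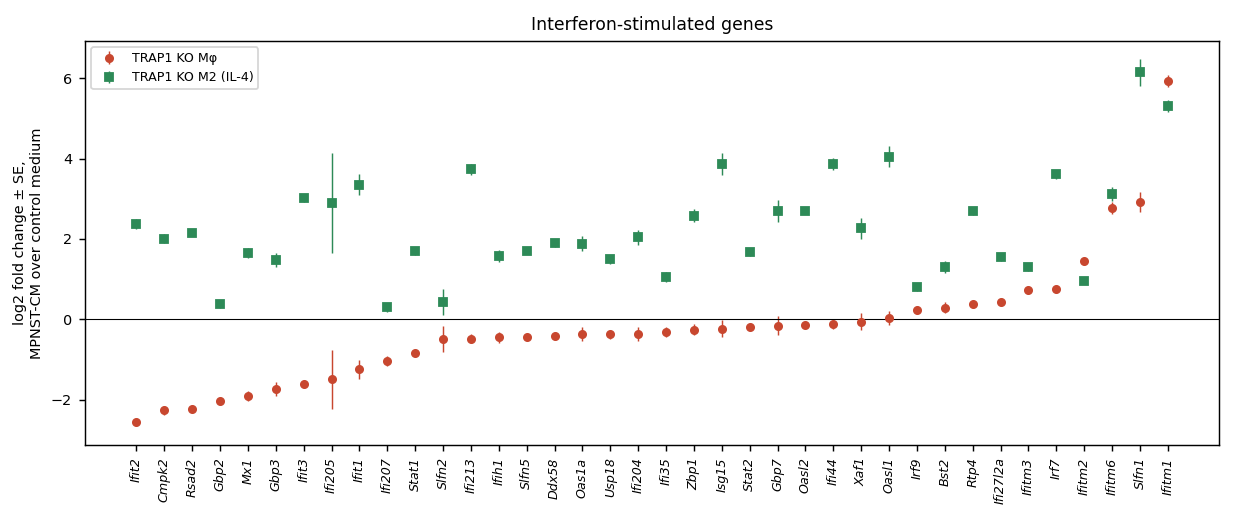
Log2 fold changes of 38 interferon-stimulated genes between MPNST-CM and control medium, with bars of ± 1 SE, in TRAP1 KO Mφ (red circles) and TRAP1 KO M2 cells (green squares), ordered by the Mφ value. The M2 points lie above 0 throughout with a median of 2.02, and the Mφ median is −0.34.

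Genes of class II antigen presentation were mostly lower, whereas 9 of the 18 class I genes did not pass. Of 14 class II genes 10 were lower and 3 higher, beside 18.1% and 14.8% of all genes, and against 5 and 1 with all 27 libraries, which ended the calls of Ciita and Cd86. Ciita, the master regulator of class II, was at 25, 19.8 and 18.4 CPM in control medium and at 3.74, 2.55 and 3.06 CPM in MPNST-CM, a log2 fold change of −2.75 ± 0.206 (adjusted p = 2.62e-11). H2-Aa, H2-Ab1 and H2-Eb1 fell by 1.88, 1.86 and 1.94. The co-stimulatory receptor Cd40 fell by 2.23 and Cd86 rose by 2.05. The fall of Ciita was not called different from that in WT Mφ (−0.66, adjusted p = 0.153). Of 18 class I genes 8 were lower and 1 higher, with a median of −0.18. The 8 were 5 without replicate 1 of both groups or without MPNST-CM replicate 3, and 2 with all 27 libraries. The 1 higher was 0 without control replicate 1 or MPNST-CM replicate 2 and with all 27 libraries, and 2 without MPNST-CM replicate 1. The immunoproteasome subunit Psmb10 was at −0.84, Tapbpl at −0.72 and Nlrc5 at −0.58.

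Secreted signals went both ways, beside 14.8% of all genes higher and 18.1% lower. All 11 CXC chemokines tested were called, 6 higher and 5 lower. Cxcl9 had 89 counts over the control libraries and 2 in MPNST-CM, a ratio of 45.8 with an exact interval from 12.3 to 384. Cxcl5 had 0 counts in control medium and 37 in MPNST-CM, which made it at least 12-fold higher against a floor of 3 counts over the group. Of 12 CC chemokines 5 were higher and 5 lower. Ccl6 was at 970, 995 and 933 CPM and then at 6380, 6350 and 6150 CPM, while Ccl5 was at 69.4, 77.2 and 83.6 CPM and then at 8.11, 9.37 and 10.2 CPM. Ccl4 fell by 1.87 and Ccl12 rose by 1.62. Of 23 cytokine and inflammasome genes 6 were higher and 8 lower. Osm rose by 1.82, and the IL-1 receptor antagonist Il1rn and the NF-κB inhibitor Tnfaip3 fell by 1.22 and 1.65.

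The growth factor and matrix ligand list was mostly lower, with 14 of 23 members down and 4 up, beside 18.1% and 14.8% of all genes. Its median was −0.6, and 8 members were down with all 27 libraries. Hbegf, a ligand of the EGF receptor, was at 8.25, 9.82 and 8.68 CPM and then at 0.624, 0.608 and 0.637 CPM, a log2 fold change of −3.81 ± 0.222 (adjusted p = 1.71e-13). Bmp2 had 89 counts over the control libraries and 3 in MPNST-CM, Edn1 had 31 and 2, and the lymphatic factor Vegfc had 34 and 3. Of 15 genes of coagulation and plasminogen activation 8 were higher and 3 lower, with thrombomodulin Thbd at 1.39, the urokinase receptor Plaur at 1.2, Vwf at −1.93 and F10 at −0.89. Of 14 metalloproteinases and inhibitors 6 were higher and 5 lower. Mmp14 fell by 4.01, Adamts1 by 1.91 and the macrophage elastase Mmp12 by 1.58, and Mmp19 and Adam8 rose by 2.9 and 1.76.

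Of 9 transcripts that the text of the study singles out among angiogenic factors in its sequencing data, 3 rose, 5 fell and 1 did not pass. Over all genes 14.8% were higher and 18.1% lower. The 9 are not all the angiogenic factors the study names, and it chose them on these samples, so their direction is no independent evidence. They also pool 2 cell states. The study names Ccl3, Tnf, Pdgfa, Mmp8 and Mmp10 for Mφ, and Ang, Itgb3, Ccl7, Ccl2 and Mmp10 for M2 cells. Of those named for Mφ, Mmp8 rose, Ccl3, Pdgfa and Tnf fell and Mmp10 did not pass. Mmp8, a neutrophil-type collagenase, was at 24, 27.1 and 25.8 CPM and then at 141, 162 and 181 CPM, and the monocyte chemokines Ccl7 and Ccl2 rose by 2.5 and 1.22. Ccl3 was at 133, 149 and 152 CPM and then at 34.3, 42.2 and 38.6 CPM, and the integrin subunit Itgb3 fell by 2.7. Pdgfa fell by 0.6, Ang by 0.59 and Tnf by 0.51, calls that all 27 libraries ended, while Mmp10 had at most 0.524 CPM in any library. Ccl3, Tnf and Pdgfa each rose in WT Mφ, and the genotypes differed in response by −2.8, −1.29 and −1.05 (adjusted p = 4.09e-13, 9.12e-06 and 7.97e-07). Mmp8 went the other way, rising by 1.03 in WT Mφ, with a difference of 1.63 (adjusted p = 4.09e-09). The TRAP1 KO response was above that of WT for 1 of the 9 and below it for 4, beside 8.17% and 11.5% of all genes.

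Of 11 tested markers that the study followed by RT-qPCR, 7 were higher, 3 lower and 1 did not pass. Over all genes 14.8% were higher and 18.1% lower. The list pools M2-like markers with the M1-like Fcgr1, Il1b and Nos2 and with Hif1a. By RT-qPCR the study reports that TRAP1 loss largely blocked the rise of the M2-like markers and induced the M1-like ones. The response in TRAP1 KO Mφ was above that of WT Mφ for 6 of the 11 and below it for 1, beside 8.17% and 11.5% of all genes. The mannose receptor Mrc1 was at 742, 747 and 679 CPM in control medium and at 2610, 2540 and 2660 CPM in MPNST-CM, and Cd163 rose by 1.18. Il1b was at 3.88, 3.8 and 4.08 CPM and then at 38.2, 44.6 and 47.6 CPM. Hif1a rose by 1.07 and the Fc receptor Fcgr1 by 0.64. Mmp9 fell by 1.42 and the lectin Clec10a by 0.65, and all 27 libraries ended the calls of Mmp9 and Fcgr1. Arg1 was at 0, 1.96 and 0.921 CPM and then at 1.87, 1.95 and 4.2 CPM, with overlapping groups. It passed with a log2 fold change of 1.47 ± 0.48 (adjusted p = 0.0223) and lost the call with the compared groups alone (adjusted p = 0.175), without MPNST-CM replicate 3 (adjusted p = 0.156) and without control replicate 1 or 3. Nos2 did not pass (−1.71 ± 0.835, adjusted p = 0.126), and Arg2 had 3 counts in all. Arg1 in M2 cells went from 4.89 to 228 CPM on average, and its response differed between Mφ and M2 by −4.07 (adjusted p = 0.000235).

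Of 25 genes of IL-4 alternative activation, 8 were higher and 8 lower, beside 14.8% and 18.1% of all genes. All 27 libraries gave 5 and 3, Flt1 among those lost. The transglutaminase Tgm2 rose by 3.22, and the VEGF receptor Flt1, the transcription factor Egr2 and the kinase Matk fell by 5.21, 2.74 and 2.07. Among 49 transcription factors of macrophage lineage and polarization 18 were higher and 17 lower, and 9 were lower with all 27 libraries. Runx3 rose by 3.57, Fos by 3.04 and Fosl2 by 2.93. Fos was at 26.1, 32.7 and 26.4 CPM and then at 198, 255 and 247 CPM, with all 3 libraries in MPNST-CM far above the control range. Of 21 feedback inhibitors of signalling 10 were higher and 5 lower. Dusp6 and Spry2, brakes of ERK signalling, rose by 2.91 and 2.37, Socs3 by 2.62 and Trib1 by 2.37, and Socs1 and Dusp2 fell by 2.41 and 2.22.

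Surface receptor genes went both ways within each list, as did all genes tested, of which 14.8% were higher and 18.1% lower. Of 24 scavenger, phagocytic and Fc gamma receptors 11 were higher and 8 lower. The dectin-2 gene Clec4n was at 83, 93.6 and 81.3 CPM in control medium and at 951, 1020 and 981 CPM in MPNST-CM, whereas the dectin-1 gene Clec7a was at 336, 329 and 313 CPM and then at 38.8, 32.6 and 35.5 CPM. Clec4e and Clec4d rose by 2.65 and 2.45 and the scavenger receptor Msr1 by 2.17, and the efferocytosis receptor Axl fell by 1.87. Of 15 complement genes 5 were higher and 5 lower, with C3 at −2.76, Cfb at −1.89, Cfp at 1.58 and C5ar1 at 1.13. Of 14 integrins 4 were higher and 4 lower, with Itgb7 at 2.11, Itgam at 1.43 and Itgax at −2.16. Of 14 galectins and S100 genes 4 were higher and 3 lower, with S100a6 at 1.24 and S100a11 at 1.06. Of 43 lysosomal genes 19 were lower and 6 higher, with a median of −0.25, and 10 were lower with all 27 libraries. The 6 higher were 3 without control replicate 1 or MPNST-CM replicate 3. Cathepsin L, Ctsl, was at 856, 1090 and 986 CPM and then at 4960, 6120 and 6630 CPM, while the proton pump subunits Atp6v0d2 and Atp6v0a1 fell by 1.83 and 1.23, Tfeb, the regulator of lysosomal genes, by 1.34 and Ctsh by 1.1.

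**Figure D5:**
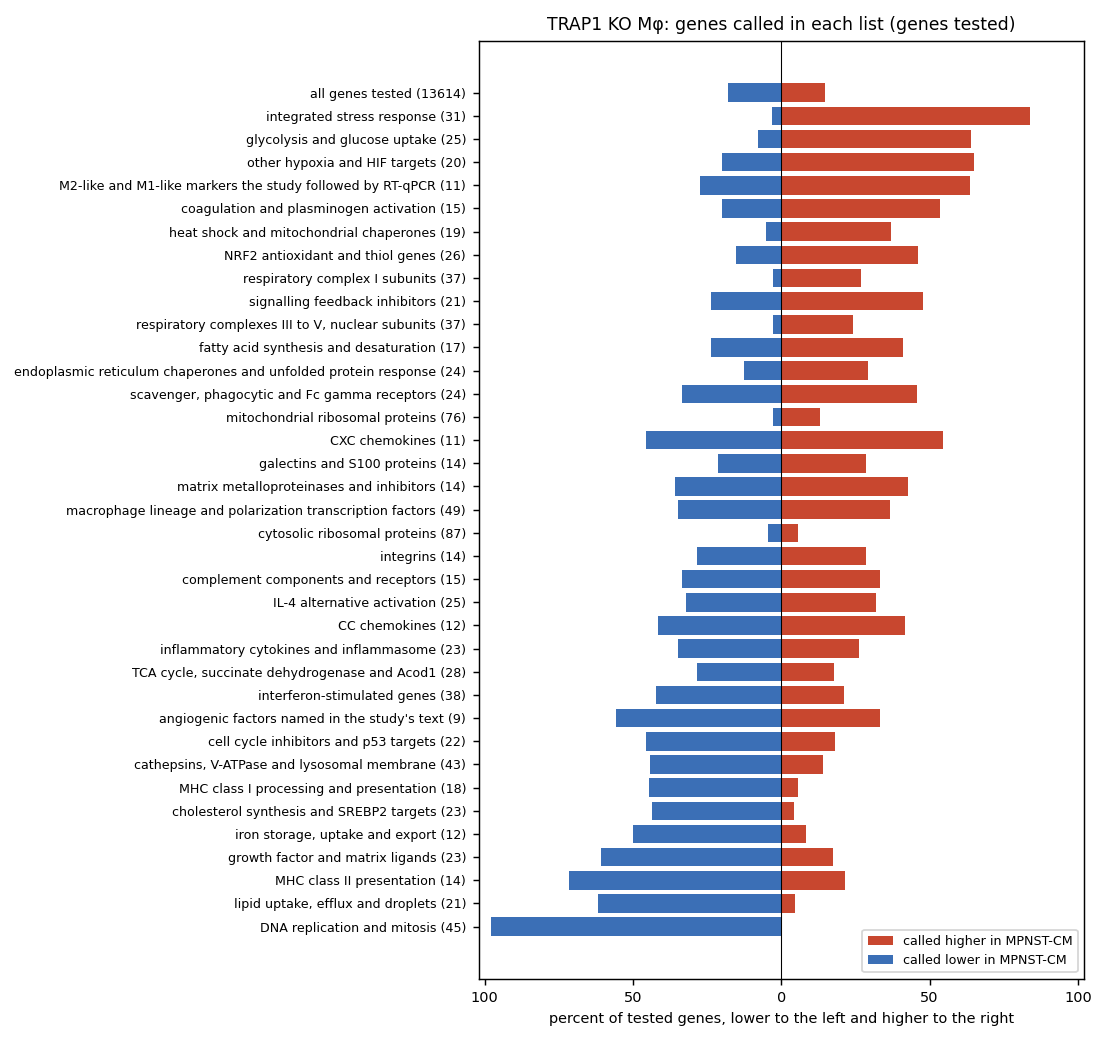
Share of the tested genes of each of 36 lists, and of all 13614 genes tested (top), that were called higher (red, right) or lower (blue, left) in MPNST-CM in TRAP1 KO Mφ, with the number of genes tested in parentheses. Over all genes 14.8% were higher and 18.1% lower, and the list of DNA replication and mitosis is the one with no red bar.

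Across all genes the response of TRAP1 KO Mφ differed from that of WT Mφ in 2683 of 13614 (19.7%), with 1112 above and 1571 below. WT Mφ alone had 2889 called genes (21.2%). Of the 2009 genes higher in TRAP1 KO, 867 had a response above that of WT and 9 below it, and of the 2467 lower, 1225 were below and 14 above. Over all genes 8.17% were above and 11.5% below. The 2009 and 2467 were picked on the TRAP1 KO libraries that also enter the difference. That choice largely set its direction, so these counts are no evidence of a stronger response. Genes called higher in both genotypes numbered 663, which is 33% of those in TRAP1 KO and 43.2% of those in WT, and genes called lower in both numbered 743, or 30.1% and 54.8%. The response differed between TRAP1 KO Mφ and TRAP1 KO M2 in 1564 genes (11.5%), with 818 above and 746 below, and M2 cells had 5016 called genes (36.8%). Higher in both cell states were 1288 genes, which is 64.1% of those in Mφ and 56.8% of those in M2, and lower in both were 1565, or 63.4% and 57%. With all 27 libraries in the fit, the differences numbered 653 from WT and 407 from M2.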

How the data were processed

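RNA of bone marrow-derived macrophages was sequenced as QuantSeq FWD 3′ libraries with 75 bp single reads. The authors trimmed the reads with Trimmomatic, mapped them with HISAT2, kept mapping qualities from 20 with SAMtools and used featureCounts for counting, and they deposited the raw counts without normalization (versions and strand setting are not given in the sources used here). The labels name mm39 and the study's methods mm10, so no coordinates of the counted genes are given. A further 5 columns, which no described library matches, were left out.

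Counts were tested with edgeR 4.0.16 (R 4.3.3) by a robust quasi-likelihood fit of the 24 first-batch libraries in 8 groups, with TMM factors, the filter on low counts by group and Benjamini-Hochberg adjustment at 0.05. The fit has 16 residual degrees of freedom. CPM were computed with TMM-scaled library sizes, and the SE is the one that the F statistic of each log2 fold change implies. Interactions compared responses with those of WT Mφ and TRAP1 KO M2, which share the TRAP1 KO Mφ libraries. DESeq2 1.42.0 was an alternative, besides other scalings, no filter, a block of replicate numbers, a fit of the compared groups only, all 27 libraries, a fold threshold and leaving out each library. The pipeline was tested on simulated counts. Depths were 7480246 to 8055385 counts, and 3 counts were taken as the floor.

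Deviations from the group means correlated by 0.474, 0.131 and 0.201 between same-numbered libraries of the 2 media. Between others they correlated by −0.334 to 0.188, a range that holds the 0.131 of replicate 2. The replicate numbers, which come from the labels, may thus pair the samples, but the main test had no term for them. The block of replicate numbers was run only as an alternative. The samples and gene lists were chosen with earlier results of these data known. Genes named were Trap1 and Xist, those from the text of the study, the 15 largest rises and falls with no overlap and a mean from 10 CPM in the higher of the groups, leaving out predicted genes, the 8 called genes with most reads, up to 5 called members of each list by size, and 8 per direction of each interaction. Further list members were named for their roles, and a few results are not reported here.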

Additional observations from a re-analysis of the deposited data

Results flagged for a closer look

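The response to MPNST-CM differed between TRAP1 KO Mφ and WT Mφ in 2683 genes by the interaction term of edgeR's quasi-likelihood fit. The log2 difference was 5.49 for Aqp9, 5.18 for Cox6a2, 4.92 for Ppbp, 4.42 for F5, 4.14 for Il1r2, 4.05 for Klra2, 3.87 for Vcan and 3.8 for the phosphodiesterase gene Pde3b. It was −4.75 for Dnmt3aos, −4.67 for Cxcl10, −4.21 for Adra1a, −3.96 for Fabp4, −3.93 for Nptx1, −3.78 for the DNA helicase gene Pif1, −3.74 for Lrrc14b and −3.54 for Exo1.

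The response differed between TRAP1 KO Mφ and TRAP1 KO M2 cells in 1564 genes. The difference was 4.81 for Bex1, 4.55 for fibronectin Fn1, 4.05 for Mmp8, 3.24 for Galnt9, 3.08 for Rnase2a, 2.65 for Cav1 and 2.59 for Cd276. Of these, Bex1, Fn1, Rnase2a and Cd276 were not called in Mφ, and Galnt9 fell there. Bex1 had 3, 2 and 2 counts in control medium and 2, 2 and 1 in MPNST-CM in Mφ, at or under the floor of 3 counts, and Rnase2a had 1, 5 and 3 and then 3, 1 and 2, so their fitted differences depend on the prior count and are no measured size. Fn1 had 2.66 CPM in control medium and 1.89 CPM in MPNST-CM in Mφ, and 404 and 12.1 CPM in M2. The difference was −5.16 for Ifit1bl1, −5.07 for Cxcl10, −4.93 for Ifit2, −4.81 for Iigp1, −4.64 for Ifit3, −4.61 for Ifit1 and −4.57 for Ifit3b. For Tlr5 the fitted difference was −5.24, but Tlr5 had no counts in M2 cells in control medium, so that value depends too on the prior count.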

How the results depend on the processing

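Other scalings, DESeq2, no filter and the compared groups alone left the 9 counts of called genes within 1.5 times. The replicate block gave 4874 called genes in TRAP1 KO Mφ (2180 higher, 2694 lower), 3084 different from WT (1298 above, 1786 below) and 1841 different from M2 (955 above, 886 below). It changed no call among the 206 named genes that were followed, while the cytosolic ribosomal protein genes called higher became 11. Leaving out 1 library gave 3800 to 4223 genes in TRAP1 KO Mφ, 2357 to 2590 different from WT and 1319 to 1514 different from M2.

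With all 27 libraries, 2647 genes were called in TRAP1 KO Mφ, of them 1289 lower, 653 differed from WT (222 above, 431 below) and 407 from M2 (232 above, 175 below). The 3 added libraries are of a second batch, from WT Mφ in control medium and from TRAP1 KO M2 cells in either medium. None is of TRAP1 KO Mφ, so the libraries compared for that response were unchanged. The fit had no term for batch, and all groups share its estimate of the spread. The cause of the lower counts was not tested. Asking for a log2 change of 1 or more in either direction left 1749 genes (685 higher, 1064 lower), 1213 different from WT (427 above, 786 below) and 610 from M2 (234 above, 376 below), as such a threshold must. None of the 206 named genes that were followed turned direction in any alternative. Genes named only for an interaction or for a role were not followed. Leaving out 1 library ended the call of 13 of the 206, and all 27 libraries that of 46. Depth limits genes at or under 3 counts in a library.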
